A study of Mus musculus with 14 samples.

Results

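Keratins, uroplakins and mesothelial surface proteins of the epithelium that covers the fetal ovary were compared between Coup-tfII knockout and control mouse ovaries. The members were 4 keratin genes (Krt7, Krt8, Krt18 and Krt19), 2 uroplakin genes (Upk1b and Upk3b), mesothelin (Msln) and mucin 16 (Muc16). Every probe set whose single gene symbol in the platform annotation was one of these was taken, which gave 14 of 45037 probe sets other than controls and 8 of 18193 genes with a probe set of their own. All 8 genes passed the filter on low signal, as 12406 genes did in all.

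The ovary is covered by a single layer of epithelium that derives from the coelomic lining and stays related to mesothelium. Simple epithelia build their intermediate filaments from pairs of a type II keratin (Krt7, Krt8) and a type I keratin (Krt18, Krt19), which are anchored at desmosomes. Uroplakins are membrane proteins best known from the bladder lining, and Upk1b and Upk3b are also made by mesothelium, as are the cell surface glycoproteins mesothelin and Muc16 (CA125).

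Whole fetal ovaries were profiled on 14 Affymetrix arrays. The groups were knockout ovaries at E14.5 (3 arrays), control ovaries at E14.5 (3 arrays), knockout ovaries at E16.5 (4 arrays) and control ovaries at E16.5 (4 arrays), on a mixed background of C57BL/6, Swiss Webster and B6129SF1/J. Knockouts were WT1-CreERT2; COUP-TFII flox/flox embryos, in which a recombinase driven by Wt1 and switched on by tamoxifen deletes the gene (symbol Nr2f2), and dams received 2 mg of tamoxifen for every 10 g of weight at E11.5 and E12.5. The labels do not state the genotype of the control embryos or whether they carried the recombinase. Wt1 is itself made by surface epithelium and by other somatic cells of the fetal ovary. In whole ovaries, fewer cells of a type and less RNA per cell cannot be told apart. The labels call the arrays biological replicates and do not say how many embryos or litters each drew on, so p-values measure the spread between these arrays.

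Values are MAS5 signals on a linear scale, each array scaled to the same trimmed mean. Fold changes are knockout over control on the log2(signal + 16) scale, given ± SE, which understates the change of dim probe sets. A call is an adjusted p under 0.05 in limma over all 12406 genes, each by its brightest probe set. On 5 of 6 probe sets of Nr2f2 itself, all E16.5 knockout arrays lay below all E16.5 control arrays. At E14.5 the Nr2f2 probe set with the widest fall at E16.5 read 34.6 to 79.1 in knockout arrays, against 19.3, 350 and 207 in control arrays 1, 2 and 3, so control array 1 did not sit with its group for this probe set. The hybridization control bioB read 10840 and 18370 on E16.5 knockout arrays 1 and 4, against 4555 to 5909 on the E16.5 control arrays.

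COUP-TFII is a nuclear receptor that binds repeats of the half-site AGGTCA, and promoters of 4 members are shown for that reason. Upk3b and Krt7 had knockout arrays above control arrays at both stages, and Krt8 and Krt18, neighbours on chromosome 15, had small changes. RefSeq promoters (GRCm38.p6) were at hand for 5 of 8 members, and the 250 bases before the annotated start were searched on both strands. None was at hand for Krt19, Upk1b or Msln, so no member called between knockout and control is covered. The half-site AGGTCA (or TGACCT) occurs in 14% of 32851 promoters of this length, and the GC box GGGCGG (or CCGCCC) in 32.7%. The 4 printed here, 5′ to 3′ on the strand of the gene, with matches in capitals, are Upk3b (chr5:136038246-136038495, plus strand), Krt8 (chr15:102004343-102004592, minus strand), Krt18 (chr15:102027966-102028215, plus strand) and Krt7 (chr15:101412153-101412402, plus strand).
Upk3b: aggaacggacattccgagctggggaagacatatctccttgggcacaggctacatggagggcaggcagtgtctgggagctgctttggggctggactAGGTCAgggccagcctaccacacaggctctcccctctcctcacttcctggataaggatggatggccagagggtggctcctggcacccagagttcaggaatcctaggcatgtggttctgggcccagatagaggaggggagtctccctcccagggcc
Krt8: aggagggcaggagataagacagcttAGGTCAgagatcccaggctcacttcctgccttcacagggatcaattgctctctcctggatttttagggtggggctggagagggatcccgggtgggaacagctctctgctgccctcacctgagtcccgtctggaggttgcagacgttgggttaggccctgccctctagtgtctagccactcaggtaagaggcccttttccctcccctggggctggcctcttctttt
Krt18: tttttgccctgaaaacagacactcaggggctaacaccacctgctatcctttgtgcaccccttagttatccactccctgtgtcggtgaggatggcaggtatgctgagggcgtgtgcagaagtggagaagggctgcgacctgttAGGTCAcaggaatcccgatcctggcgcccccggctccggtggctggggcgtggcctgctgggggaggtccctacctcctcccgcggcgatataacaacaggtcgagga
Krt7: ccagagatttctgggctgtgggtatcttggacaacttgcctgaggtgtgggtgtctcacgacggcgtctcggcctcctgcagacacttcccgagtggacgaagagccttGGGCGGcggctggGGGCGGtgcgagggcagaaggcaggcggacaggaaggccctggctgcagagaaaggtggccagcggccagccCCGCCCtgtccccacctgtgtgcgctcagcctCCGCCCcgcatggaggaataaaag

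In these windows AGGTCA stood once in Upk3b, 155 bases before the start, once in Krt8, at 225, and once in Krt18, at 108. Krt7 held 4 GC boxes and no half-site, and Muc16 held none of the motifs. No match overlapped another, and the TATA box TATAAA (12.4% of promoters) and the CCAAT box CCAAT (33.8%) were in none of the 5. A match is a description of the letters only, and its absence says only that the letters are not in this window.

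Krt19 carried the widest change of the keratins and passed as higher in E16.5 knockout ovaries. Krt7, the type II keratin of simple ducts and linings, was higher on every knockout array at both stages without passing. Krt8 and Krt18, the first keratin pair of simple epithelia, had 95% intervals that included 0 at both stages.

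Krt19, a type I keratin of simple epithelia, had signals of 1851, 2039 and 1284 in E14.5 knockout arrays, against 1097, 501 and 415 in E14.5 control arrays. It had 2610, 2241, 2286 and 2391 in E16.5 knockout arrays, against 1370, 1094, 684 and 975 in E16.5 control arrays. The groups did not overlap at either stage, and the 4 E16.5 knockout arrays lay close together while control array 3 was the lowest. At E16.5 the log2 change was 1.24 ± 0.25, and Krt19 rose 2.36-fold (limma adjusted p = 0.0173). The call was lost without E16.5 control array 3 (log2 change 1.06, limma adjusted p = 0.0647) or without knockout array 1 (1.19, adjusted p = 0.0643). It was also lost without knockout arrays 1 and 4 together (1.17, limma adjusted p = 0.228). At E14.5 the log2 change was 1.44 ± 0.28, with a limma adjusted p of 0.102. Without E14.5 control array 1, which had the highest Krt19 signal of the controls, it was 1.86 (limma adjusted p = 0.00272). Without E14.5 knockout array 3 it was 1.64 (limma adjusted p = 0.0158).

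Krt7 read 981, 1358 and 1191 in E14.5 knockout arrays, against 963, 621 and 655 in E14.5 control arrays. In E16.5 ovaries it read 1197, 737, 835 and 1031 on knockout arrays, against 561, 638, 621 and 575 on control arrays. Knockout arrays lay above control arrays at both stages, with a gap of little width at E14.5, where control array 1 was the highest control. Its log2 change reached 0.66 ± 0.19 in the E14.5 arrays (adjusted p = 0.313 in limma) and 0.63 ± 0.16 in the E16.5 arrays (adjusted p = 0.0622). At E16.5 it passed without knockout array 2, the lowest of its group (0.74, limma adjusted p = 0.0254), and without E14.5 control array 1 (0.63, adjusted p = 0.0401). It also passed after quantile normalization (0.66, limma adjusted p = 0.0453), where 3 members were called, and not after median centring, where 2 were.

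Krt8 was measured by 3 probe sets. On the brightest, 1420647_a_at, it read 2455, 2494 and 2312 in E14.5 knockout arrays, against 1633, 2271 and 2201 in E14.5 control arrays. All 3 probe sets had knockout arrays above control arrays at E14.5, where 6.73% of all probe sets did, and on all 3 the groups overlapped at E16.5 with a negative log2 change. The brightest gave a log2 change of 0.26 ± 0.14 in the E14.5 arrays (adjusted p = 0.627 in limma) and of -0.16 ± 0.12 in the E16.5 arrays (adjusted p = 0.491). The 95% interval at E16.5 ran from -0.42 to 0.09. Its partner Krt18 had a log2 change of -0.03 ± 0.11 at E16.5, with a 95% interval from -0.26 to 0.20, and of 0.16 ± 0.13 at E14.5. The groups of Krt18 overlapped at both stages.

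**Figure D1:**
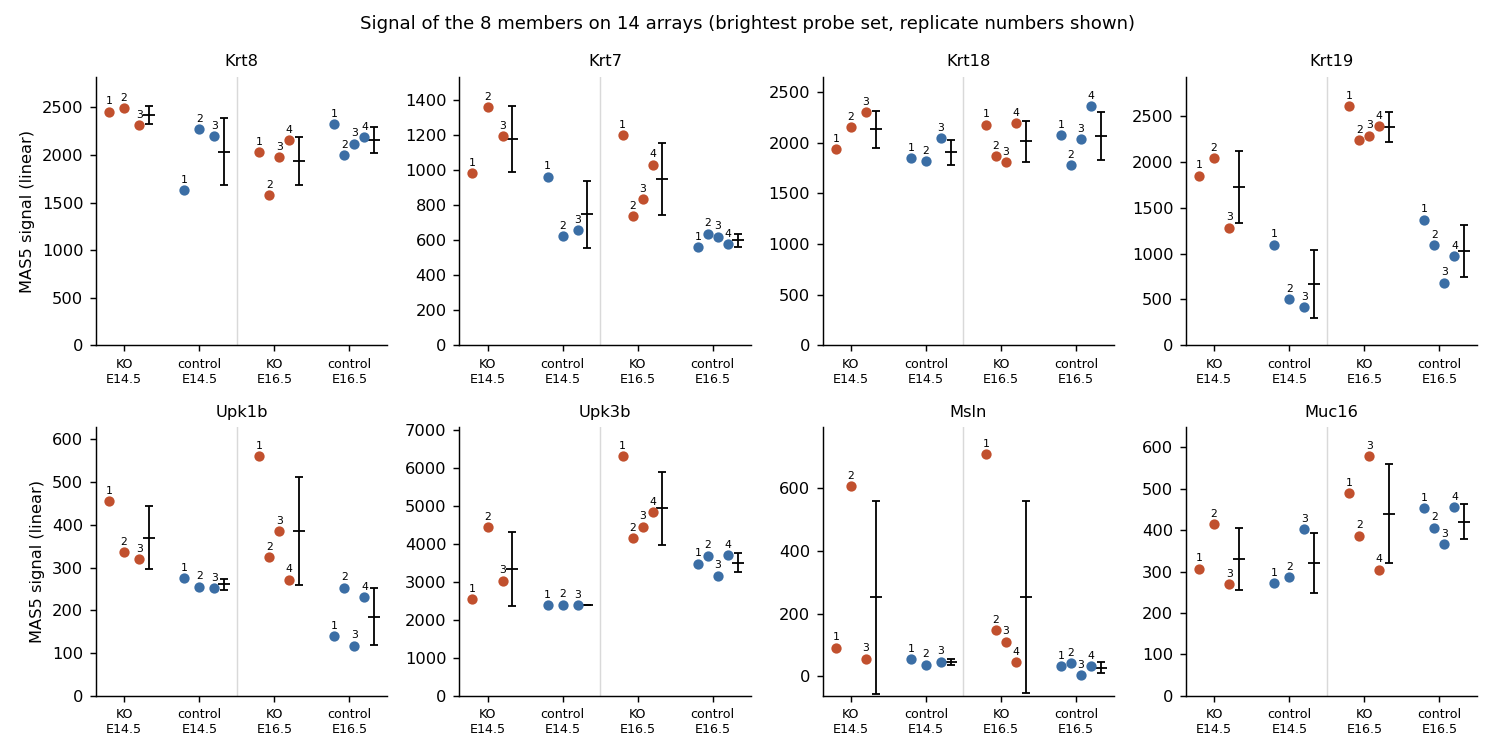
MAS5 signal (linear) of each member's brightest probe set on every array, with replicate numbers; the bar beside each group is its mean ± SD (n = 3 at E14.5, n = 4 at E16.5). Knockout arrays (red) lay above control arrays (blue) at both stages for Krt7, Krt19, Upk1b, Upk3b and Msln, while the groups of Krt18 and Muc16 overlapped at both.

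The plot of signals by array shows how far the groups of each member lay apart. Of the pair of uroplakins, Upk1b passed as higher at E16.5 and Upk3b did not pass, although its knockout arrays lay above all control arrays at both stages.

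Upk1b, a tetraspanin that pairs with uroplakin III proteins at the cell surface, was measured by 4 probe sets. On the brightest, 1439760_x_at, it had 455, 336 and 320 in E14.5 knockout arrays, against 274, 255 and 252 in E14.5 control arrays. In E16.5 ovaries the same probe set read 561, 324, 385 and 272 on knockout arrays, against 140, 253, 117 and 231 on control arrays. The groups did not overlap, with knockout array 1 far above the rest and knockout array 4 just above control array 2. The log2 change at E16.5 was 1.01 ± 0.24, a 2.01-fold rise (limma adjusted p = 0.0438), and at E14.5 it was 0.47 ± 0.27 (limma adjusted p = 0.661).

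The call on Upk1b was near the threshold, and it held in 12 of 26 alternative settings. The log2 change at E16.5 was 0.82 (limma adjusted p = 0.139) without knockout array 1 and 0.99 (adjusted p = 0.0636) without knockout array 3. It was 0.91 (limma adjusted p = 0.126) without control array 1 and 0.83 (adjusted p = 0.131) without control array 3. Leaving out E14.5 control array 2, E14.5 control array 3 or E14.5 knockout array 2, which share the estimate of spread, gave limma adjusted p-values of 0.0583, 0.0546 and 0.0504. With all 4 probe sets averaged the change was 0.86 (limma adjusted p = 0.106). The other 3 probe sets had log2 changes of 0.49, 1.09 and 0.85 at E16.5, all positive, and their groups overlapped. On 1455464_x_at the signals were 471, 268, 327 and 162 in E16.5 knockout arrays, against 102, 172, 99.5 and 142 in E16.5 control arrays, and only knockout array 4 fell inside the control range.

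Upk3b, a uroplakin III family protein with 1 AGGTCA in its promoter window, was measured by 2 probe sets. The brighter, 1454881_s_at, read 2550, 4443 and 3036 in E14.5 knockout arrays, against 2384, 2405 and 2387 in E14.5 control arrays. At E16.5 it read 6319, 4160, 4464 and 4836 on knockout arrays, against 3484, 3695, 3169 and 3705 on control arrays. The E14.5 control arrays hardly differed from each other, knockout array 1 lay just above them, and knockout array 2 stood far above. The log2 change came to 0.44 ± 0.17 in E14.5 ovaries (adjusted p = 0.463 in limma) and to 0.48 ± 0.15 in E16.5 ovaries (adjusted p = 0.117). The second probe set, 1434237_at, gave 0.50 with overlapping groups at E14.5. At E16.5 it gave 0.32, and the lowest knockout array, at 1862, was barely above the highest control array, at 1860.

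**Figure D2:**
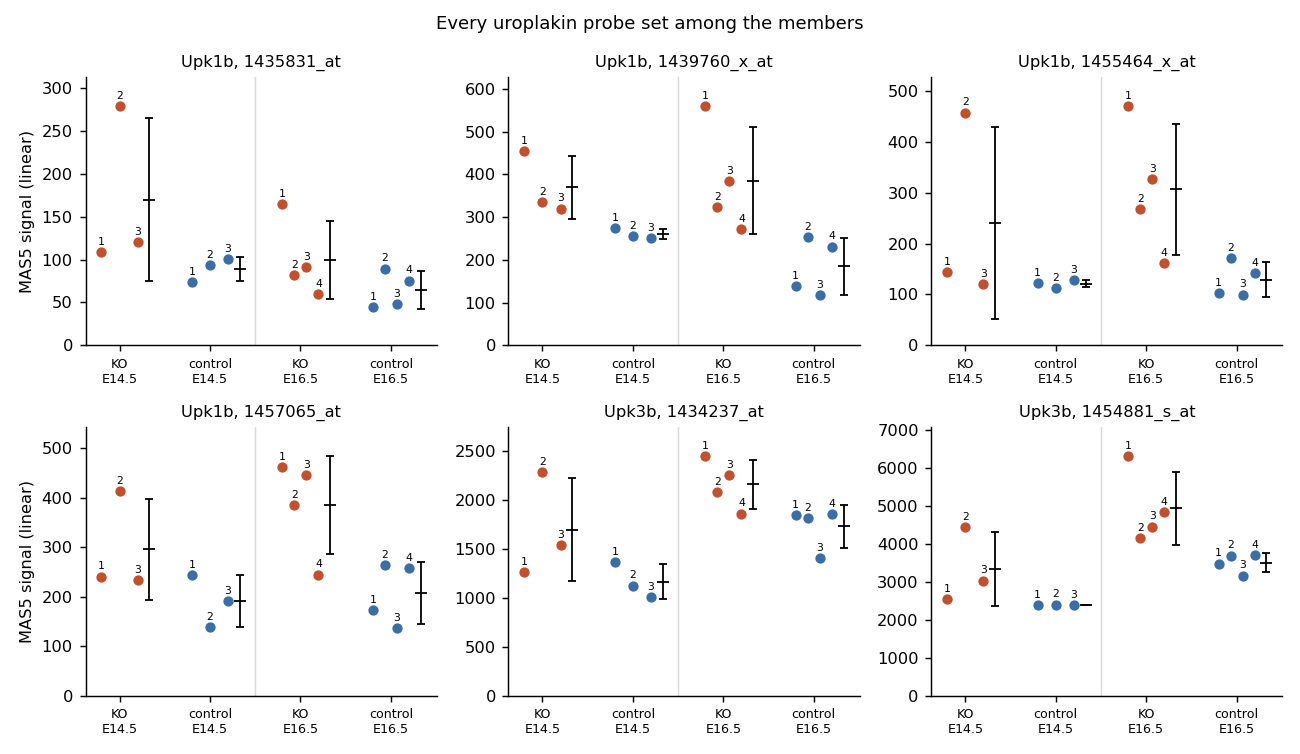
MAS5 signal (linear) of the 4 Upk1b and 2 Upk3b probe sets on every array, with replicate numbers and the mean ± SD of each group (n = 3 at E14.5, n = 4 at E16.5). Knockout array 2 at E14.5 and knockout array 1 at E16.5 are the highest of their groups on most panels, and only 1439760_x_at of the Upk1b probe sets has E16.5 groups that do not overlap.

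On the panels of the uroplakin probe sets E16.5 knockout array 1 was the highest of its group throughout, while 1439760_x_at was highest on array 1 of the E14.5 knockouts. Mesothelin and Muc16 are known to bind each other at the mesothelial surface. Msln was higher on all knockout arrays without passing, and the groups of Muc16 overlapped.

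Msln had 92.1, 606 and 57.1 in E14.5 knockout arrays, against 55.3, 37.8 and 47.4 in E14.5 control arrays. In E16.5 ovaries it had 707, 147, 111 and 44.8 on knockout arrays, against 33.5, 43.6, 3.54 and 32.0 on control arrays. One knockout array stood far above the rest at each stage, replicate 2 at E14.5 and replicate 1 at E16.5, and the lowest knockout array was just above the highest control array. Its log2 change amounted to 1.45 ± 0.76 in E14.5 ovaries (adjusted p = 0.627 in limma) and to 2.09 ± 0.66 in E16.5 ovaries (adjusted p = 0.119). Without E14.5 knockout array 2 the E14.5 change was 0.51, and without E16.5 knockout array 1 the E16.5 change was 1.40. All control signals of Msln lay below the filter's level of 62.0, so the gene was tested because of its knockout arrays, and the size of its change moved with the pseudocount, to 2.80 with 1 and 1.38 with 64 at E16.5. Muc16, a tethered mucin, had a log2 change of 0.04 ± 0.22 in E14.5 ovaries and of 0.03 ± 0.19 in E16.5 ovaries, with a 95% interval from -0.38 to 0.43 at E16.5, and its sign at E16.5 turned under both other scalings. Its signals were 305 to 579 in E16.5 knockout arrays and 367 to 456 in E16.5 control arrays, so the groups overlapped, as they did at E14.5.

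Counted together, 2 of 8 members were higher and 0 of 8 lower in E16.5 knockout ovaries, where 0.967% of all genes tested were called higher and 0.451% lower. The knockout arrays lay all above the control arrays for 5 of 8 members at E16.5, where 6.22% of all genes did so. Msln is one of them and entered through its knockout arrays, and without it the count was 4 of 7. At E14.5 limma called 0 of 8 members, where 0.0403% of genes were called, and 3 of 8 had an unadjusted p under 0.05, against 8.55% of genes. Knockout arrays lay all above for 6 of 8 members at E14.5, where 7.84% of genes did so, and for 5 of 7 without Msln. The median log2 change of the members was 0.45 at E14.5, against 0.03 over all genes tested, and 0.55 at E16.5, against 0.05 over all genes tested. Without Msln the median was 0.44 at E14.5 and 0.48 at E16.5. The members were chosen with earlier results of these data known, so their counts and medians against all genes are no independent result. By probe set, with Msln included, 9 of 14 lay all above at E14.5, against 6.73% of all probe sets, and 6 of 14 at E16.5, against 3.96%. In the fit of all 45037 probe sets, 1 of 14 passed as higher at E16.5, that of Krt19, where 0.293% of probe sets did, and 0 of 14 at E14.5, where 0.0244% did. In that fit 1439760_x_at of Upk1b had a limma adjusted p of 0.0668 at E16.5. A measure of RNA quality moved with genotype at that stage. The 3' minus 5' difference of Gapdh, in log2, was 0.94 to 1.63 on E16.5 knockout arrays, against 1.67 to 1.82 on E16.5 control arrays, without overlap. With that difference as a covariate the log2 change at E16.5 was 1.44 for Krt19 (limma adjusted p = 0.0960) and 0.68 for Upk1b (adjusted p = 0.551).

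**Figure D3:**
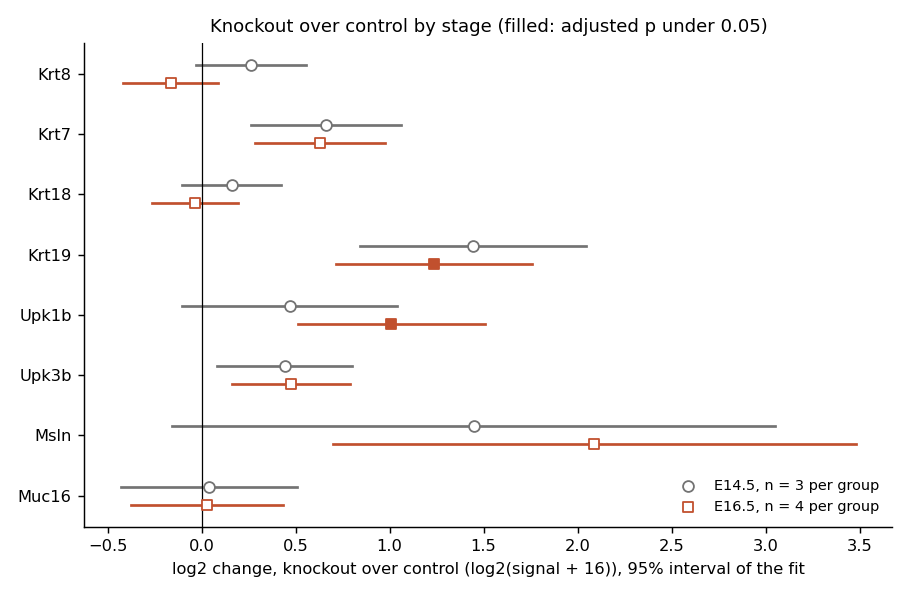
Log2 change (knockout over control, log2(signal + 16)) of the 8 members at E14.5 (circles, n = 3 per group) and E16.5 (squares, n = 4 per group), with the 95% interval of the limma fit. Only Krt19 and Upk1b at E16.5 are filled (adjusted p under 0.05). The intervals of Krt8, Krt18 and Muc16 include 0 at both stages, and those of Upk1b and Msln include 0 at E14.5.

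The plot of log2 changes places the estimates of all 8 members on the positive side at E14.5. At E16.5 those of Krt8 and Krt18 were negative and that of Muc16 was near 0. The E14.5 intervals of Upk1b (-0.11 to 1.04) and Msln (-0.16 to 3.05) include 0. Whether the knockout effect itself differed between E16.5 and E14.5 was tested for each member in the same limma fit, and 0 of 8 passed, where 0% of genes did. At an unadjusted p under 0.05 there was 1 member, Krt8, against 8.91% of genes. Its difference was -0.43 ± 0.18 on the log2 scale, E16.5 effect less E14.5 effect (limma adjusted p = 0.539). For Upk1b the difference was 0.54 ± 0.36, with a 95% interval from -0.22 to 1.30.

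Many members were highest on the same array of a knockout group. E14.5 knockout array 2 was the highest of its group on 12 of 14 member probe sets, and E16.5 knockout array 1 was the highest of its group on 9 of 14, in which Upk1b counts 4 times. By gene these were 6 of 8 and 5 of 8 members. In every group some array must be the highest, and the share of all genes highest on these arrays was not computed. The counts are therefore no result about the members. At E16.5 Krt8 and Krt18 were highest on knockout array 4 and Muc16 on knockout array 3. Marker sums of other cells also stood out on E14.5 knockout array 2 and E16.5 knockout array 1. Of the E14.5 knockouts, array 2 had the highest duct (9498), interstitial (21510), pre-granulosa (48550), endothelial (3601) and macrophage (1726) sums. Its germ cell sum (48890) was the lowest. Of the E16.5 knockouts, array 1 had the highest duct (4743), interstitial (25760), endothelial (4648) and macrophage (5189) sums. Its germ cell sum (16020) was the lowest, and its pre-granulosa sum (24980) was not the highest. The part of these sums in the members' values was not tested. The mean of the 8 members, in log2 less the stage mean, was 0.18, 0.69 and 0.05 in E14.5 knockout arrays, against -0.19, -0.40 and -0.33 in E14.5 control arrays. It was 0.81, 0.15, 0.28 and 0.08 in E16.5 knockout arrays, against -0.26, -0.21, -0.64 and -0.21 in E16.5 control arrays. With Msln included, all knockout arrays were above 0 and all control arrays below it. Msln entered through its knockout arrays and a mean without it is not given, so this separation is no further result. Msln read 606 on E14.5 knockout array 2 and 707 on E16.5 knockout array 1, the arrays with the highest means. These Msln values raise both means, by an amount that was not computed. E16.5 knockout array 1 is one of the arrays with a high bioB control, and its part in the result was not tested beyond the values without it.

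**Figure D4:**
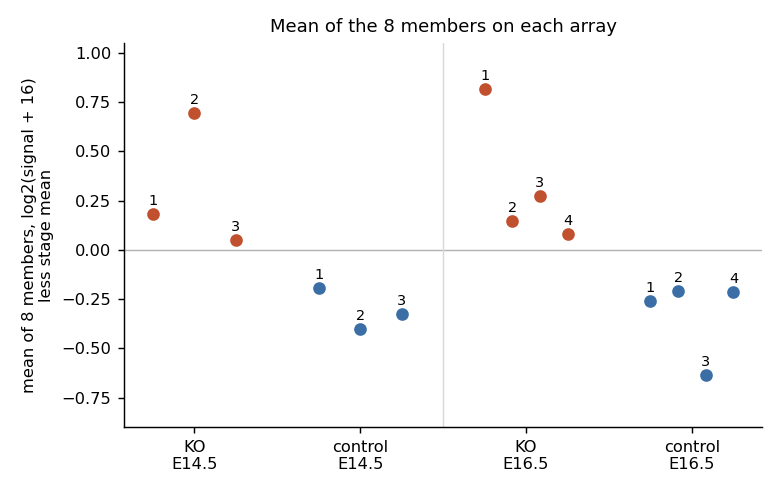
Mean over the 8 members, Msln included, of log2(signal + 16) less the mean of the stage, for each array with its replicate number. Knockout arrays (red) lie between 0.05 and 0.81 and control arrays (blue) between -0.64 and -0.19, with knockout array 2 at E14.5 and knockout array 1 at E16.5 the highest.

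The plot shows the members' mean with Msln included. At each stage, the spread among knockout arrays was wider than the gap between the lowest knockout and the highest control array. The genes nearest to this mean over the 14 arrays, by the root mean square difference of their log2 values less stage means, were Col6a3 (0.144), Psrc1 (0.151), Atxn1 (0.154), Asic2 (0.157) and Ntrk2 (0.170). The mean itself has a root mean square of 0.392 about its stage means. Nearest to Krt19, which has a root mean square of 0.757, were Gpm6a (0.261), Ccng1 (0.271) and Hao2 (0.300). Since these were picked for likeness, their changes are no further result.

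Between stages, Upk3b was higher at E16.5 than at E14.5 in both genotypes, Krt19 was higher in controls, and Krt8 was lower in knockouts. In controls, 2 of 8 members were higher at E16.5 than at E14.5, where 28.5% of genes were, and 0 of 8 were lower, where 35.9% were; under both other scalings 2 of 8 were lower. Upk3b had a log2 change of 0.55 ± 0.16, E16.5 over E14.5 (limma adjusted p = 0.00632), with E16.5 control signals of 3169 to 3705 against E14.5 control signals of 2384 to 2405. Krt19 had 0.69 ± 0.27 (limma adjusted p = 0.0302), with E16.5 and E14.5 control arrays overlapping. In knockouts Upk3b had 0.58 ± 0.16 (limma adjusted p = 0.00451) and Krt8 had -0.33 ± 0.13 (limma adjusted p = 0.0357), so 1 of 8 members was higher and 1 of 8 lower, where 27.0% and 33.8% of genes were. All 3 Krt8 probe sets had E16.5 knockout arrays below all E14.5 knockout arrays, against 22.6% of all probe sets. In the fit of all probe sets, 1423691_x_at gave -0.71 ± 0.14 in knockouts (limma adjusted p = 0.000407). There 1435989_x_at gave -0.42 ± 0.18 (limma adjusted p = 0.0523). In controls 1423691_x_at was lower too (-0.42 ± 0.14, limma adjusted p = 0.0202), while 1420647_a_at gave 0.10 and 1435989_x_at gave 0.20.

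These stage comparisons depend on scaling and on the arrays. The median of all genes lay at -0.09 in controls as deposited, at -0.21 after quantile normalization and at -0.43 after median centring, and the share of calls that were higher was 44.3%, 37.4% and 26.5%. The same medians in knockouts were -0.08, -0.20 and -0.41, and the shares were 44.4%, 37.3% and 25.6%. In controls the members called lower were Krt7 and Upk1b, at -0.46 and -0.86 after quantile normalization (limma adjusted p = 0.0309 and 0.00746) and at -0.63 and -0.86 after median centring (limma adjusted p = 0.00353 and 0.00457). In knockouts median centring called Krt7 (-0.64), Krt18 (-0.41) and Krt8 lower (limma adjusted p = 0.00308 and 0.00918 for the first pair). After median centring Upk3b gave 0.21 in controls and 0.26 in knockouts (limma adjusted p = 0.262 and 0.170), and Krt19 gave 0.35 in controls (limma adjusted p = 0.251). Quantile normalization also ended the Krt19 call (0.54, limma adjusted p = 0.0765). Without E16.5 knockout arrays 1 and 4, Upk3b in knockouts gave 0.40 (limma adjusted p = 0.0524), and Krt7 passed as lower (-0.56, limma adjusted p = 0.0161). Leaving out 1 array ended the Krt19 call in controls for E14.5 control array 2 (0.55), E14.5 control array 3 (0.42), E16.5 control array 1 (0.55, adjusted p = 0.0960 in limma) and E16.5 control array 2 (0.65). It ended the Krt8 call in knockouts for E14.5 knockout arrays 1 and 2 (-0.32 and -0.31) and E16.5 knockout array 2 (-0.23). The Gapdh difference ran from 0.94 to 1.82 on all E16.5 arrays, against -0.42 to -0.06 on all E14.5 arrays, so stage and this measure cannot be told apart.

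Other genes of the ovarian surface were read from a list of 14, all measured and tested. Limma called 2 of 14 higher and 0 of 14 lower in E16.5 knockout ovaries, where 0.967% of all genes were higher and 0.451% lower. At E14.5 it called 0 of 14, where 0.0403% of genes were called. The list was written with earlier results of these data known. Gpm6a, 1 of the 2 called, was also the gene nearest to Krt19, so these calls are no independent result. The list's median log2 change was 0.06 at E16.5, against 0.05 over all genes, and 0.12 at E14.5, against 0.03.

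Gpm6a, a membrane glycoprotein best known from neurons, had 1458, 1188, 1253 and 707 in E16.5 knockout arrays, against 483, 576, 261 and 353 in E16.5 control arrays. The groups did not overlap, and it rose, with a log2 change of 1.44 ± 0.32 (limma adjusted p = 0.0322). Efemp1, a fibulin of the extracellular matrix, had 846, 393, 414 and 352 in E16.5 knockout arrays, against 148, 229, 116 and 151 in E16.5 control arrays. It too had no overlap, with knockout array 1 far above the others, and its log2 change was 1.49 ± 0.29, a rise that passed (limma adjusted p = 0.0158). Neither passed without knockout array 1 (1.31 for Gpm6a and 1.22 for Efemp1, limma adjusted p = 0.111 and 0.0556) or without control array 3 (1.24 and 1.36, adjusted p = 0.117 and 0.0593). Gpm6a was also lost without E16.5 control array 1 (1.52), control array 4 (1.38) or knockout array 3 (1.38). At E14.5 both had knockout arrays above control arrays, with log2 changes of 1.49 for Gpm6a and 1.14 for Efemp1, and did not pass (limma adjusted p = 0.233 and 0.320). Without knockout arrays 1 and 4 together, Gpm6a gave 1.57 and Efemp1 1.28 (limma adjusted p = 0.158 and 0.155). With the Gapdh difference as a covariate they gave 1.67 and 1.22 (limma adjusted p = 0.143 and 0.280), and without the trend Gpm6a had a limma adjusted p of 0.0592. The call held in 18 of 26 alternatives for Gpm6a and in 22 of 26 for Efemp1. These alternatives were added for genes outside the members after seeing the data.

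**Figure D5:**
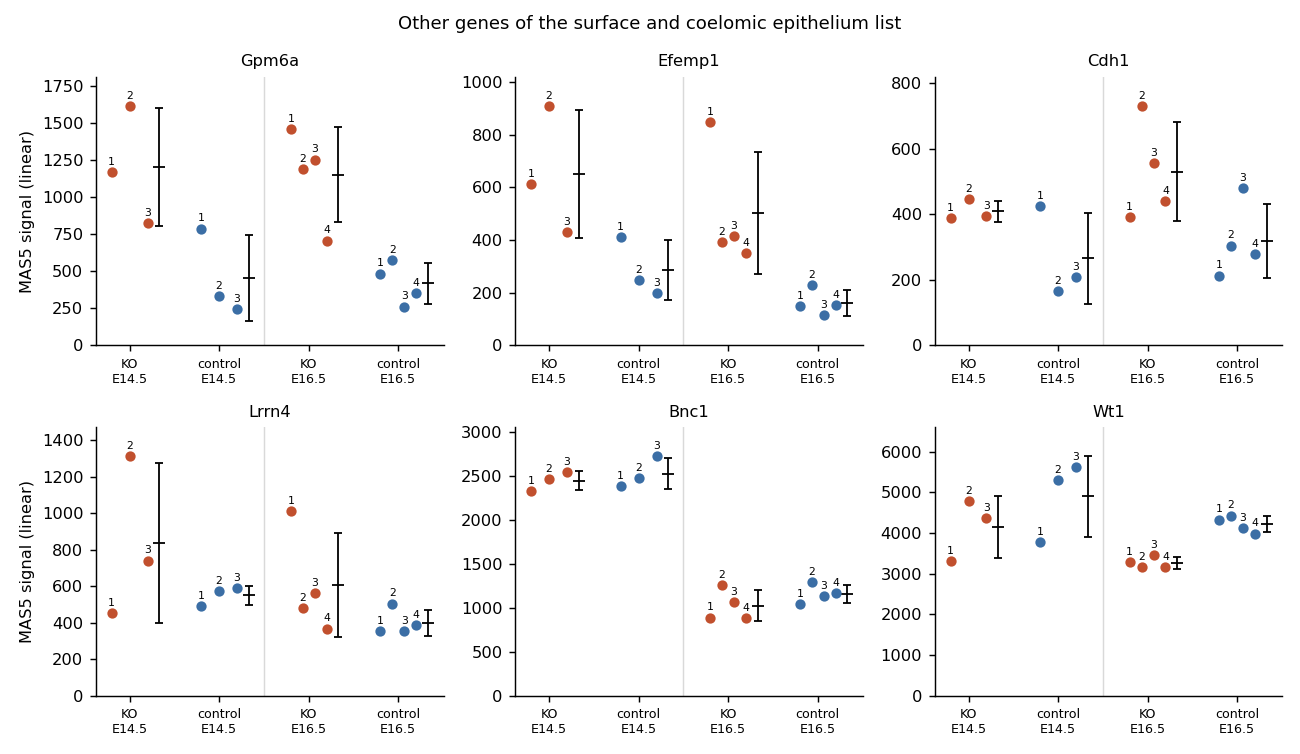
MAS5 signal (linear) of 6 other genes of the surface epithelium list on every array, with replicate numbers and the mean ± SD of each group (n = 3 at E14.5, n = 4 at E16.5). Gpm6a and Efemp1 have knockout arrays above control arrays at both stages, Bnc1 overlaps at both, and Wt1 has E16.5 knockout arrays below all E16.5 control arrays.

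As the panels of the other surface genes show, some general markers of the coelomic epithelium had changes near or below 0. Of the 14 genes on the list, 8 had a positive log2 change at E14.5 and 8 at E16.5. Bnc1, a zinc finger protein of mesothelium, changed by -0.05 in log2 terms in the E14.5 arrays and by -0.19 in the E16.5 arrays, without passing. Wt1, whose locus drives the recombinase, had a log2 change of -0.23 in E14.5 ovaries and of -0.37 in E16.5 ovaries (adjusted p = 0.143 in limma for the second). Cdh1, which encodes E-cadherin, had 0.70 at E14.5 and 0.72 at E16.5 with overlapping groups and did not pass. Lrrn4, also plotted, had higher means in knockouts at both stages and was not called. Its mean signal was 834 in E14.5 knockout arrays, against 551 in E14.5 control arrays. At E16.5 it was 605.5 in knockout arrays, against 400 in control arrays.

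Of 44 other keratin genes measured, 7 passed the filter and limma called 0 of 7 at either stage. The smallest p-values at E14.5 were those of Krt20 (-0.61 ± 0.21, limma adjusted p = 0.414) and Krt10 (0.62 ± 0.22, adjusted p = 0.415). At E16.5 they were those of Krt88 (0.91 ± 0.30, limma adjusted p = 0.131) and Krt79 (-0.34 ± 0.21, adjusted p = 0.397). None of 4 other uroplakin genes and none of 7 other membrane mucins and mesothelin relatives passed the filter. Desmosome and keratin linker genes numbered 10, of which 8 were tested and 0 called. Among them Dsp, the plakin that ties keratin to desmosomes, had 0.63 ± 0.18 at E16.5 (limma adjusted p = 0.0944). Jup, its plakoglobin partner, had 0.67 ± 0.24 with groups that did not overlap (limma adjusted p = 0.154). Summed over the 10, which takes in 2 genes below the filter, the signal was 4236 to 4657 in E16.5 knockout arrays. It was 3613 to 4186 in E16.5 control arrays, without overlap. At E14.5 the sums overlapped, at 3676 to 4482 in knockout arrays, against 3639 to 4333 in control arrays. Of 11 junction and polarity genes tested, 0 were called at either stage.

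Markers of other tissues that a dissected ovary can carry were set beside these values. Mesonephric and Mullerian duct epithelium also makes keratins; of 9 of its marker genes measured, 5 were tested and 0 called at either stage. Their summed signal was 6512 to 9498 in E14.5 knockout arrays, against 4653 to 8314 in E14.5 control arrays. At E16.5 it was 3758 to 4743 in knockout arrays, against 4217 to 6103 in control arrays. Most of that sum was Emx2, with 2269 to 3055 in E16.5 knockout arrays, against 2680 to 3761 in E16.5 control arrays. A pair of dimmer duct genes, transcription factor Pax8 and cadherin Cdh16, had E16.5 knockout arrays above all E16.5 control arrays, where 6.22% of all genes did so. They were the 2 of 5 with a positive log2 change at E16.5. Emx2 (-0.32), Calb1 (-0.52) and Gata3 did not have one. The list's median was -0.06, against 0.05 over all genes. Pax8 had 0.74 ± 0.22 at E16.5 (limma adjusted p = 0.0933). Cdh16 read 73.7 to 114 in E16.5 knockout arrays, against 32.2 to 73.5 in E16.5 control arrays, with a log2 change of 0.77 ± 0.38 (limma adjusted p = 0.293). The part of duct cells in the members' values was not tested.

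Among 9 pre-granulosa markers limma called 0 at either stage, and Foxl2, the transcription factor of that lineage, had -0.83 ± 0.20 at E16.5 (limma adjusted p = 0.0504). The summed signal of those 9 was 24020 to 25990 in E16.5 knockout arrays, against 30030 to 31270 in E16.5 control arrays. All 4 E16.5 knockout arrays lay below all control arrays, and the part of this in the members' values was not tested. Of 8 germ cell markers 0 were called at either stage. The smallest p-values at E14.5 were those of Pou5f1 (-1.55 ± 0.54, limma adjusted p = 0.414) and Stra8 (-1.98 ± 0.73, adjusted p = 0.432). At E16.5 they were those of Tex101 (0.59 ± 0.20, limma adjusted p = 0.135) and Mael (0.26 ± 0.12, adjusted p = 0.260).

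Of 5 macrophage markers C1qb, a complement subunit, passed as higher at E16.5 (0.82 ± 0.20, limma adjusted p = 0.0480), and the 5 summed to 2462 to 5189 in E16.5 knockout arrays, against 2154 to 2468 in E16.5 control arrays. That call held in 7 of 26 alternatives, and without knockout array 1 the change was 0.58 (limma adjusted p = 0.120). With 1 array left out, it held only where that array was E16.5 knockout array 2 or 4. Of 7 interstitial markers Pdgfra, a growth factor receptor of stromal cells, passed as lower (-1.25 ± 0.19, limma adjusted p = 0.00458). It held in 25 of 26 alternatives and was lost without knockout arrays 1 and 4 together (-1.11, limma adjusted p = 0.0894). Of 5 endothelial markers Tek, the angiopoietin receptor, passed as lower (-0.68 ± 0.15, limma adjusted p = 0.0255), while the other 4 had positive changes that did not pass and the list's median was 0.19. The Tek call held in 18 of 26 alternatives. It was lost without any 1 of the E16.5 control arrays, without knockout array 1 or 4 (limma adjusted p = 0.0518 to 0.0972 over these 6 fits), and without both of those knockout arrays (-0.63, limma adjusted p = 0.217). With the Gapdh covariate it was lost too (limma adjusted p = 0.186).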

How the data were processed

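Each deposited value is the intensity (signal) of 1 probe set on a linear scale. The submitters' processing notes name MAS5 and Affymetrix Expression Console, without versions. RNA came from a PicoPure kit and was labelled with the Affymetrix 3' IVT Express kit, per the labels' protocols. The 2% trimmed mean of every array was 500, so a global difference in RNA amount is removed. Symbols came from the platform annotation: 34945 probe sets had 1 symbol, 932 several and 9160 none listed. Each of 18193 genes was taken by its brightest probe set (by mean log2 value over the 14 arrays), and 12406 genes were tested, with a mean log2 value past the 40th percentile over probe sets (a signal of about 62.0). A model with 4 groups was fitted to log2(signal + 16) with limma 3.58.1 in R 4.3.3 (trended eBayes; with the package data.table, version 1.17.8), two-sided, with Benjamini-Hochberg adjustment over all genes and a threshold of 0.05. A second fit took all 45037 probe sets without a filter. Steps were tested on simulated data. Figures used matplotlib 3.10.9 and pandas 2.3.3 in Python 3.11.15. Array numbers limit the precision.

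The members and gene lists were chosen with earlier results of these data known. The text names all members, Nr2f2 and Wt1, some but not all of the leading genes of the lists by smallest p, and the nearest profiles. Bnc1 and Lrrn4 are named beyond that rule, after their values were seen. Alternatives changed the pseudocount, scaling, filter, probe set choice, spread model and arrays; fits without E16.5 knockout arrays 1 and 4 and with Gapdh as a covariate were among them.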

Additional observations from a re-analysis of the deposited data

Results flagged for a closer look

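Of 28 groups of 4 arrays tested over the 14 probe sets, 2 held an array far from the others, and chance alone is expected to mark some groups. For Msln in E16.5 knockouts, array 1 read 707, and its gap to the nearest array was 0.845 of the range of the group. For the Upk3b probe set 1434237_at in E16.5 controls, array 3 read 1406, below the other 3, and its gap was 0.911 of the range. Both exceed Dixon's 95% critical value for 4 samples.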

How the results depend on the processing

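The sign of the knockout change held in 26 of 26 alternatives at both stages for Krt19, Krt7, Upk1b and Upk3b, and in 25 of 25 for Msln; calls did not. With 1 array left out, the number of members called lay between 0 and 1 for E14.5 and between 0 and 3 for E16.5. It ran from 1 to 3 between stages in controls and likewise in knockouts. Member probe sets called numbered 0 to 1 for E14.5 and 0 to 2 for E16.5. Of all genes, 0 to 179 were called for E14.5, 43 to 494 for E16.5 and 0 to 30 for the difference between stages. At E16.5, 1 member was called without the filter, with the mean of all probe sets, without the trend, and with only the arrays of the comparison. Neither dropping knockout arrays 1 and 4 nor the Gapdh covariate left a call (0 in each case), and they left 16 and 19 of all genes. Between stages in knockouts, 1 member was called under quantile normalization and 1 without the trend. With the Gapdh covariate 0 were called between stages in controls and 0 in knockouts, and 701 and 1192 of all genes. Of probe sets at E16.5, 2 were called at the 60th percentile, and 0 without the trend, without knockout arrays 1 and 4, or with the covariate. With the replicate number as a block, 1 member (Krt19) was called at E14.5, 1 (Krt19) at E16.5 and 3 between stages in knockouts, and of all genes 9 and 293 passed at E14.5 and E16.5. Samples of the same number had correlations of -0.05 to 0.16 (E14.5) and -0.002 to 0.43 (E16.5) in their deviations from the group means. Samples of different numbers had -0.158 to 0.141 (E14.5) and -0.295 to 0.254 (E16.5). With so few arrays in a group, these ranges cannot tell whether the numbers pair the samples. Quantile normalization called 278 genes at E16.5, 60.1% of them higher, and median centring 62.7% of its calls, against 68.2% as deposited.

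Changes whose sign turned all lay short of a call, apart from Krt19 and Krt8 between stages. Under quantile normalization, log2 changes were -0.0055 for Muc16 at E16.5, -0.20 for Msln and -0.27 for Upk1b between stages in knockouts, and 0.0077 for Krt19 and 0.063 for Krt7 in the difference between stages. Median centring gave Muc16 -0.012 at E14.5, -0.0077 at E16.5 and 0.0039 for the difference. It gave Krt18 -0.23 and Krt8 -0.24 between stages in controls, and Msln -0.30 and Upk1b -0.31 in knockouts. The mean of probe sets gave Krt8 -0.039 in controls and Upk3b -0.074 in the difference. Without knockout arrays 1 and 4, Msln gave -0.24 and Upk1b -0.050 between stages in knockouts, and Muc16 0.13 and Upk3b -0.14 in the difference. The Gapdh covariate gave Muc16 -0.02 at E16.5. Between stages it gave Krt19 -0.38, Krt7 0.42, Msln 3.58 and Upk1b 1.22 in controls, and Krt18 0.37, Krt19 -0.40, Krt7 0.27 and Krt8 0.53 in knockouts. In the difference it gave Msln -0.062 and Upk3b -0.16. With 1 array left out, Muc16 ran from -0.13 to 0.21 at E14.5, from -0.11 to 0.19 at E16.5 and from -0.18 to 0.16 in the difference. Krt18 ran from -0.10 to 0.034 at E16.5, and Krt8 from -0.052 to 0.18 between stages in controls. In knockouts between stages, Msln ran from -0.66 to 0.97 and Upk1b from -0.17 to 0.17. In the difference, Krt19 ran from -0.62 to 0.065, Krt7 from -0.23 to 0.085, Msln from -0.043 to 1.58 and Upk3b from -0.14 to 0.26. The cause was not tested. Signals near the filter, as for Msln in controls, limit what its change can show.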
